A study of Mus musculus with 16 samples.

Results

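The genes described here were 47 genes of G2/M and mitosis, a list chosen with earlier results of these data known. Their probe sets were taken by gene symbol from the platform annotation of the array and not by their signal. Of the 47 genes, 46 had probe sets that carried their symbol alone, 106 in all. Ccnb1, which encodes a mitotic cyclin, had none and was not analysed here. All 46 passed the filter on dim probe sets, so they made up 46 of the 14299 genes tested, and Cdc25c had a wild-type mean (log2 signal 4.18) under the filter value of 4.38. Affymetrix mouse arrays measured RNA in cultured aortic smooth muscle cells at passage 10 to 20, wild type or Hey2 knockout, on a mixed C57BL/6 and 129SvJ background. Hey2 encodes a basic helix-loop-helix repressor that acts downstream of Notch, and which of its sequence was deleted was not described in the labels. Cells of both genotypes had reached 95% confluency and spent 48 h in 0.4% serum before they received human PDGF-BB at 5 ng/ml, a growth factor for smooth muscle cells. RNA was taken at 0, 15, 30, 60, 120, 180, 240 and 480 min, with 1 array for each genotype and time, 16 in all. The number of mice or cell isolates per genotype is not in the labels, so the p-values below measure only the spread between time-matched arrays, and that spread may be technical. Cells without PDGF-BB were not analysed here beyond 0 min, so the growth factor and the time in fresh medium cannot be told apart.

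A dividing cell makes the mitotic cyclins and CDK1 late in its cycle, and together they start mitosis once CDC25 phosphatases remove inhibitory phosphates from CDK1. Kinases such as PLK1 and the Aurora kinases build the spindle, the checkpoint proteins hold anaphase back until each kinetochore is attached, and the anaphase-promoting complex (APC/C) then marks cyclin B and securin for destruction. Most of these genes are transcribed in G2 and M through shared promoter elements bound by the DREAM and B-MYB-MuvB complexes and by FOXM1, and they are silent in resting cells, which is why their RNA is used as a sign of cycling. In arterial smooth muscle, resting cells re-enter the cycle after injury or growth factor treatment.

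The promoters of 5 genes are shown because they carry, or lack, the elements by which this class of genes is known. Each is the 300 bases of RefSeq (assembly GRCm38.p6) from 250 before to 50 after the start, written 5′ to 3′ on the strand of the gene, and capitals mark matches to the cell cycle genes homology region (CHR, searched as TTTGAA or TTCGAA on either strand) and to the CCAAT box (CCAAT on either strand).
Ccnb2 promoter, chr9:70421505-70421804, minus strand: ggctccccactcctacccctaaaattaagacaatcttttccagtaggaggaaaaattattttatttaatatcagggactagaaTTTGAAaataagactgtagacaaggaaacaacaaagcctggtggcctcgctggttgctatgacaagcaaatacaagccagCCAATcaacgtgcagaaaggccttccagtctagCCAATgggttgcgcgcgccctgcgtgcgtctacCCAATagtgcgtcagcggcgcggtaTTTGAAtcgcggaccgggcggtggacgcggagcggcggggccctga
Cdk1 promoter, chr10:69352863-69353162, minus strand: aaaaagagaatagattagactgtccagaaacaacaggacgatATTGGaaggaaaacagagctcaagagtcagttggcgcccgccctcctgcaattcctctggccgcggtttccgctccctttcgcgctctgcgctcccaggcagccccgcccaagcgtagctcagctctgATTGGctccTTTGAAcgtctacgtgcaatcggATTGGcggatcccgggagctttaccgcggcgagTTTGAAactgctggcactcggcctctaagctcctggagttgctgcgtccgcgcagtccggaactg
Mki67 promoter, chr7:135716330-135716629, minus strand: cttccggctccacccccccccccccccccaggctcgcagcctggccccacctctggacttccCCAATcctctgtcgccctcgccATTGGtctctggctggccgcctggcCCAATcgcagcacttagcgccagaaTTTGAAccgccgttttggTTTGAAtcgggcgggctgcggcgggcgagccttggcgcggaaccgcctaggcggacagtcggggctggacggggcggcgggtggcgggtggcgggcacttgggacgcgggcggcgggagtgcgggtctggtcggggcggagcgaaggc
Pttg1 promoter, chr11:43425932-43426231, minus strand: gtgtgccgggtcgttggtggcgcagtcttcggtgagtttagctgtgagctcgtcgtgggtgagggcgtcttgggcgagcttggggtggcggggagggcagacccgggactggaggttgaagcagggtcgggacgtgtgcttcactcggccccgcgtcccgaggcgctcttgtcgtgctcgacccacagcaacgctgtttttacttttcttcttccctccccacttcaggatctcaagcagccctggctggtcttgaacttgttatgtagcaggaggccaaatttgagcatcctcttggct
Cdc25b promoter, chr2:131186698-131186997, plus strand: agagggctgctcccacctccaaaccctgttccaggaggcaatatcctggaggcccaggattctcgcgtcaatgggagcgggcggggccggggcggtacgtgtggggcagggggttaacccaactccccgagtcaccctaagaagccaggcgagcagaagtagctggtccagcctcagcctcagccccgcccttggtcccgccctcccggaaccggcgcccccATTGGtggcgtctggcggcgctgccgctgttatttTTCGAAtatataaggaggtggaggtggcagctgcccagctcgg
Ccnb2, Cdk1 and Mki67 had 2 CHR matches and 3 CCAAT matches each, with a CHR at bases 5 to 10 after the start in Ccnb2 and at -15 to -10 in Cdk1. Pttg1, which had among the largest genotype differences below, had neither set of letters in this window, whereas Cdc25b, which was not called between genotypes, had both. The RefSeq table held 43 promoters for 40 of the 47 genes, all but Kif20a, Foxm1, Incenp, Aurkb, Ccna2, Cdc25c and Tpx2. A CHR match was found in 34 of the 43 promoters (79.1%) and in 19.2% of all 32851 promoters of the same length. The CCAAT box was found in 33 of 43 (76.7%) against 37.4%, and both together in 30 of 43 (69.8%) against 7.52%. Of the 46 CHR matches in these genes, 32 (69.6%) lay between 60 bases before and 50 after the start, against 28% of the 7260 matches in all promoters, and 1 of the 46 overlapped a CCAAT match. An E2F-type site (TTTCGCGC, TTTGGCGC or TTTCCCGC on either strand) was found in 1 of 43 promoters (2.33%), that of Cdk1, against 1.84%. By genotype call, 29 of 35 promoters of genes higher in the knockout held a CHR match and so did 5 of 7 promoters of genes that were not called. By gene these were 27 of 33 and 4 of 6. Bub3, Ect2 and Prc1 each have promoters that overlap, so a site in their shared stretch counts more than once in the promoter and match counts. A match is a description of the letters and not of binding.

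The deposited signals were not on a common scale, since their 2% trimmed mean ran from 80.99 to 342.5, and the arrays were quantile normalized before log2(signal + 4.86) was taken. All 9 smooth muscle markers passed the filter, which asks for a signal on at least 3 arrays and not on all. Myh11 averaged a log2 signal of 3.71 in the knockout, under the filter value of 4.382. Des averaged 4.09 in the wild type and 4.377 in the knockout, also under it. Hey2 did not separate the genotypes on its only probe set: its log2 signal was 4.24 at lowest, 5.46 in the median and 6.88 at highest in the wild type, and 4.82, 5.3 and 6.09 in the knockout, a difference of -0.19 (SE 0.32, adjusted p = 0.696). Without knowing whether this probe set lies in the deleted sequence, it does not check the labels. The 60 and 480 min arrays went against their labels when the genotypes were compared over the 14299 genes. Each gene was first centred on its mean within each genotype. The library labelled wild type 60 min resembled knockout 480 min most (r = 0.57, against -0.33 with knockout 60 min), and the library labelled wild type 480 min resembled knockout 60 min most (r = 0.46, against -0.38 with knockout 480 min), whereas the genotypes correlated at 0.38 to 0.52 at each of the other 6 times. Wild type 15 min was closest to knockout 0 min by a small margin (r = 0.46, against 0.448 with knockout 15 min). For 60 and 480 min, which genotype's arrays depart from the time order was not tested. The labels were kept, and the leading counts are given with and without the 60 and 480 min arrays.

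RNA of most of the mitotic genes was higher in the knockout cells. Over the 8 times, 39 of 46 genes were called higher and 0 lower (limma, Benjamini-Hochberg adjustment over all genes), where 16.6% of all genes tested were called higher and 14.1% lower. Their median difference was 1.03 on the log2 scale, against -0.02 for all genes. The 39 included 26 that were called and at least 2-fold higher (4.81% of all genes), and 23 of the 46 were higher at each of the 8 times. For the count over 8 times, the share of all genes is not given here. Without the 60 and 480 min arrays, 42 of 46 were higher and 0 lower (median 1.13), where 21.6% of 13913 genes were called higher and 20.9% lower. Between genotypes the median gene differed by 1.18 at 0 min, before PDGF-BB, by 0.78 at 15, 1.14 at 30, 1.55 at 60, 0.99 at 120, 1.23 at 180 and 1.36 at 240 min, with 43 to 45 of 46 genes higher in the knockout at each of these times. At the same times 47.2% to 50.9% of all genes were higher in the knockout. At 480 min as labelled the median difference was 0.11, and 25 of 46 were higher, near the 51.8% of all genes. In bulk RNA, more cells in G2 and M and more RNA per such cell cannot be told apart.

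Cell type markers differed between the genotypes as well, where 16.6% of all genes tested were called higher and 14.1% lower. Of 12 mesothelial and epithelial markers 10 were higher and 1 lower in the knockout, and their summed normalized signal ran from 1515 to 2839 over the wild-type arrays and from 14780 to 17300 over the knockout arrays. Of 9 smooth muscle markers 0 were higher and 7 lower, with sums of 12540 to 17070 and 6564 to 9650. Adventitial fibroblast markers were higher in 4 and lower in 2 of 8 cases (8440 to 16410 and 9896 to 13100), and of 6 leukocyte markers 3 were tested and 1 was higher (433.1 to 883.9 and 729.8 to 1330), with Cd3e under the filter on every array. The endothelial markers Pecam1, Cdh5 and Vwf were under the filter on every array, and of the 3 tested (Kdr, Tek and Emcn) 0 were called, although Kdr had mean log2 signals of 5.66 in the wild type and 5.27 in the knockout, above the filter value. The summed endothelial signal ran from 48.67 to 118.3 and from 59.69 to 98.39. The part of all these markers in the result for the mitotic genes was not tested.

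**Figure D1:**
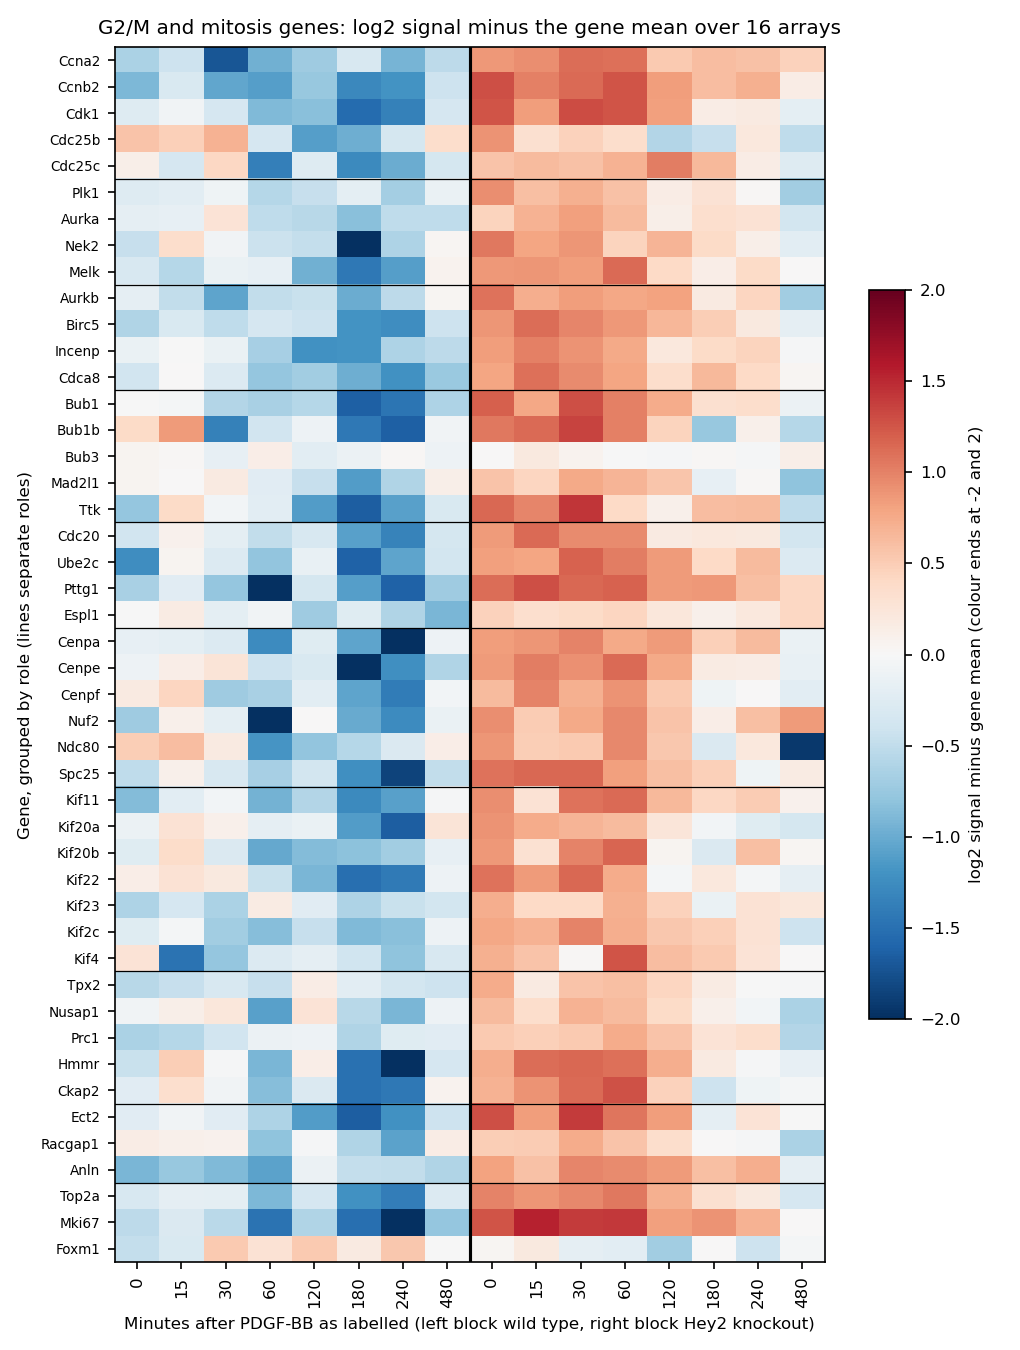
Log2 signal of each of the 46 genes (rows, grouped by role) on each of the 16 arrays (columns, minutes after PDGF-BB as labelled), as the difference from that gene's mean over all arrays. The left block holds the 8 wild-type arrays and the right block the 8 knockout arrays. In the knockout 45 of 46 rows are higher at 0 min and 25 of 46 at 480 min, against 49.6% and 51.8% of all genes.

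Among the mitotic cyclins and their kinase, Ccnb2, which encodes a B-type cyclin and whose promoter is printed above, had a log2 signal in the wild type of 5.75, 6.34, 5.61, 5.55, 5.89, 5.37, 5.46 and 6.24 from 0 to 480 min. In the knockout it was 7.94, 7.66, 7.78, 7.91, 7.48, 7.27, 7.36 and 6.81 at the same times. No knockout array overlapped a wild-type array, and the difference of 1.75 (SE 0.19, adjusted p = 4.92e-05) is a 3.37-fold higher signal. Cdk1, the kinase that drives entry into mitosis, measured 7.86, 8.05, 7.78, 7.23, 7.27, 6.57, 6.76 and 7.78 in the wild type and 9.38, 8.95, 9.41, 9.37, 8.93, 8.26, 8.30 and 7.93 in the knockout. Its difference was 1.40 (SE 0.19, adjusted p = 2.33e-04), and its lowest knockout value, at 480 min, lay below the highest wild-type value at 15 min. Ccna2, cyclin A2 of S phase and G2, ran without overlap from 4.93 to 6.33 in the wild type and from 7.11 to 7.77 in the knockout (difference 1.55, SE 0.20). Cdc25c, a phosphatase that activates CDK1, differed by 1.01 (SE 0.25), a value set partly by the offset, since the wild-type signal was dim: it was 1.19 with the offset divided by 3 and 0.71 with it multiplied by 3. Cdc25b, the other phosphatase of this kind, was not called. It measured 4.95, 6.06 and 6.75 (lowest, median, highest) in the wild type and 5.47, 6.32 and 6.95 in the knockout, with a difference of 0.17 (SE 0.18, adjusted p = 0.525), and was higher in the knockout at 5 of 8 times.

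All 4 mitotic kinases were higher in the knockout. Melk, a kinase of proliferating cells, measured 3.59 at lowest, 4.57 in the median and 5.09 at highest in the wild type, and 5.02, 5.63 and 6.15 in the knockout (difference 1.16, SE 0.19, adjusted p = 9.91e-04). Plk1, which acts from mitotic entry to cytokinesis, showed the smallest difference relative to its error in this role. Its wild-type values of 5.00, 5.44 and 5.59 overlapped the knockout values of 4.98, 6.11 and 6.61, because the knockout 480 min array lay below all wild-type arrays (difference 0.65, SE 0.19, adjusted p = 0.0218). Without the 0, 15 or 30 min arrays Plk1 was not called (adjusted p from 0.0535 to 0.0615). Aurka, the centrosomal Aurora kinase, differed by 0.75 (SE 0.13) and Nek2, a kinase of centrosome separation, by 1.04 (SE 0.27).

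The chromosomal passenger complex, which corrects faulty attachments and later guides cytokinesis, was higher in all of its 4 subunits, by 1.03 to 1.26. Cdca8 (borealin) had the smallest adjusted p of all 46 genes. It measured 5.88, 6.37 and 7.10 in the wild type and 7.13, 7.81 and 8.18 in the knockout, with no overlap (difference 1.26, SE 0.12, adjusted p = 2.28e-05). Birc5 (survivin) differed by 1.25 (SE 0.15), also without overlap, and Incenp, the scaffold of the complex, by 1.13 (SE 0.12). Aurkb, its kinase, ran over 4.33, 4.89 and 5.42 in the wild type and 4.69, 6.13 and 6.46 in the knockout (difference 1.03, SE 0.24, adjusted p = 0.00774). Its groups overlapped at the knockout 480 min array.

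Of the 5 spindle checkpoint genes, 3 were called higher. Bub1, a checkpoint kinase at kinetochores, measured 4.09, 5.14 and 5.72 in the wild type and 5.62, 6.49 and 7.02 in the knockout (difference 1.39, SE 0.18, adjusted p = 1.99e-04). Ttk (MPS1), the kinase that starts the checkpoint signal, differed by 1.20 (SE 0.26). Bub1b (BUBR1), a subunit of the inhibitor of the APC/C, differed by 0.94 (SE 0.30, adjusted p = 0.0376). Bub1b was not called when the 0, 30, 60, 120, 180 or 240 min arrays were left out (adjusted p from 0.0585 to 0.0943). Mad2l1 (MAD2), another subunit of that inhibitor, differed by 0.51 (SE 0.19, adjusted p = 0.0638), and without the 60 and 480 min arrays by 0.68 (adjusted p = 1.7e-04). Bub3, their partner at the kinetochore, ran over 10.80, 10.98 and 11.15 in the wild type and 11.00, 11.03 and 11.21 in the knockout, and the groups overlapped (difference 0.09, SE 0.06, adjusted p = 0.317).

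All 4 genes of APC/C activity and sister separation were higher in the knockout. Pttg1 (securin), the inhibitor of separase and the gene without promoter matches above, measured 8.75, 10.04 and 10.54 in the wild type and 11.19, 11.77 and 12.06 in the knockout. The groups did not overlap, and the difference was 1.86 (SE 0.19, adjusted p = 4.06e-05). Espl1 (separase), which cuts cohesin at anaphase, measured 4.45, 5.16 and 5.54 against 5.46, 5.73 and 5.83 (difference 0.64, SE 0.15, adjusted p = 0.00837), and the groups overlapped slightly. Cdc20, the activator of the APC/C in mitosis, differed by 1.02 (SE 0.17) and Ube2c, its ubiquitin-conjugating enzyme, by 1.36 (SE 0.22).

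At the centromere and kinetochore, 5 of 6 genes were called higher. Spc25, a subunit of the NDC80 complex that binds microtubules, measured 4.76, 6.12 and 6.72 in the wild type and 6.54, 7.32 and 7.77 in the knockout (difference 1.34, SE 0.14, adjusted p = 4.98e-05). Nuf2, another subunit, differed by 1.33 (SE 0.27) without overlap. Ndc80, the subunit after which the complex is named, was not called: it measured 3.53, 4.65 and 5.34 in the wild type and 2.79, 5.23 and 5.68 in the knockout (difference 0.35, SE 0.37, adjusted p = 0.515). Its knockout 480 min value was the lowest of all 16 arrays, and without the 60 and 480 min arrays the difference was 0.45 (adjusted p = 0.118). Cenpa, the histone variant of centromeres, differed by 1.33 (SE 0.24), the kinetochore motor Cenpe by 1.21 (SE 0.23) and Cenpf, a kinetochore protein of G2 and M, by 0.87 (SE 0.19). As the mean of its probe sets Cenpf differed by 0.393 and was not called (adjusted p = 0.21).

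All 7 mitotic kinesins, the motors that move and sort chromosomes and spindle microtubules, were called higher on their brightest probe sets, by 0.64 to 1.27. As the mean of its probe sets, of which 1 was called lower, Kif2c differed by 0.143 and was not called (adjusted p = 0.536). Kif23 (MKLP1), a motor of the central spindle, measured 5.59, 5.81 and 6.39 in the wild type and 6.09, 6.62 and 6.95 in the knockout (difference 0.77, SE 0.12, adjusted p = 7.44e-04) and was higher in the knockout at all 8 times. Kif20a (MKLP2), which carries the passenger complex to the midzone, measured 4.46, 5.99 and 6.41 against 5.76, 6.56 and 7.0 (difference 0.64, SE 0.20, adjusted p = 0.0308). Kif20a was not called without the 0, 15, 30, 180 or 240 min arrays (adjusted p from 0.0538 to 0.0801). The bipolar spindle motor Kif11 differed by 1.27 (SE 0.22) without overlap, the microtubule depolymerase Kif2c by 1.02 (SE 0.20), the chromokinesins Kif4 and Kif22 by 0.99 (SE 0.20) and 0.94 (SE 0.17), and Kif20b, a motor of cytokinesis, by 0.93 (SE 0.22).

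Spindle proteins were called higher in 4 of 5 cases. Hmmr, a spindle pole protein and hyaluronan receptor, measured 4.51, 6.35 and 7.24 in the wild type and 6.59, 7.47 and 7.90 in the knockout (difference 1.20, SE 0.22, adjusted p = 0.00189), with overlapping ranges although the knockout was higher at all 8 times. Nusap1, a microtubule-binding protein, measured 5.72, 6.72 and 7.08 against 6.17, 7.18 and 7.51 (difference 0.53, SE 0.20, adjusted p = 0.0724), and differed by 0.51 without the 60 and 480 min arrays (adjusted p = 0.00561). Ckap2, a spindle-associated protein, differed by 0.99 (SE 0.20), Prc1, the bundler of central spindle microtubules, by 0.72 (SE 0.16), and Tpx2, the activator of Aurora A, by 0.66 (SE 0.14).

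In cytokinesis, Ect2, the exchange factor that activates RhoA at the cleavage furrow, measured 5.09, 6.23 and 6.67 in the wild type and 6.57, 7.57 and 8.15 in the knockout (difference 1.38, SE 0.16, adjusted p = 9.86e-05). Racgap1, a subunit of the centralspindlin complex, measured 5.27, 6.36 and 6.49 against 5.69, 6.76 and 7.08 (difference 0.51, SE 0.20, adjusted p = 0.0816), and differed by 0.58 without the 60 and 480 min arrays (adjusted p = 0.00365). Anln (anillin), the scaffold of the contractile ring, differed by 1.33 (SE 0.16, adjusted p = 1.16e-04).

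Mki67, the Ki-67 protein that coats mitotic chromosomes and is the usual marker of cycling cells, showed the largest difference of the 46 genes. It measured 7.26, 7.50, 7.25, 6.30, 7.18, 6.28, 5.46 and 7.0 in the wild type from 0 to 480 min and 9.04, 9.32, 9.18, 9.19, 8.61, 8.69, 8.47 and 7.79 in the knockout. The groups did not overlap, and the difference of 2.01 (SE 0.22, adjusted p = 6.56e-05) is a 4.02-fold higher signal. Top2a, the topoisomerase that untangles sister chromatids, measured 6.77, 7.83 and 7.98 against 7.82, 8.95 and 9.21 (difference 1.20, SE 0.18, adjusted p = 5.94e-04), and only its knockout 480 min array fell within the wild-type range. In all, 8 of the 46 genes had every knockout array above every wild-type array: Ccna2, Ccnb2, Birc5, Cdca8, Pttg1, Nuf2, Kif11 and Mki67. This was so for 5.39% of all genes.

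**Figure D2:**
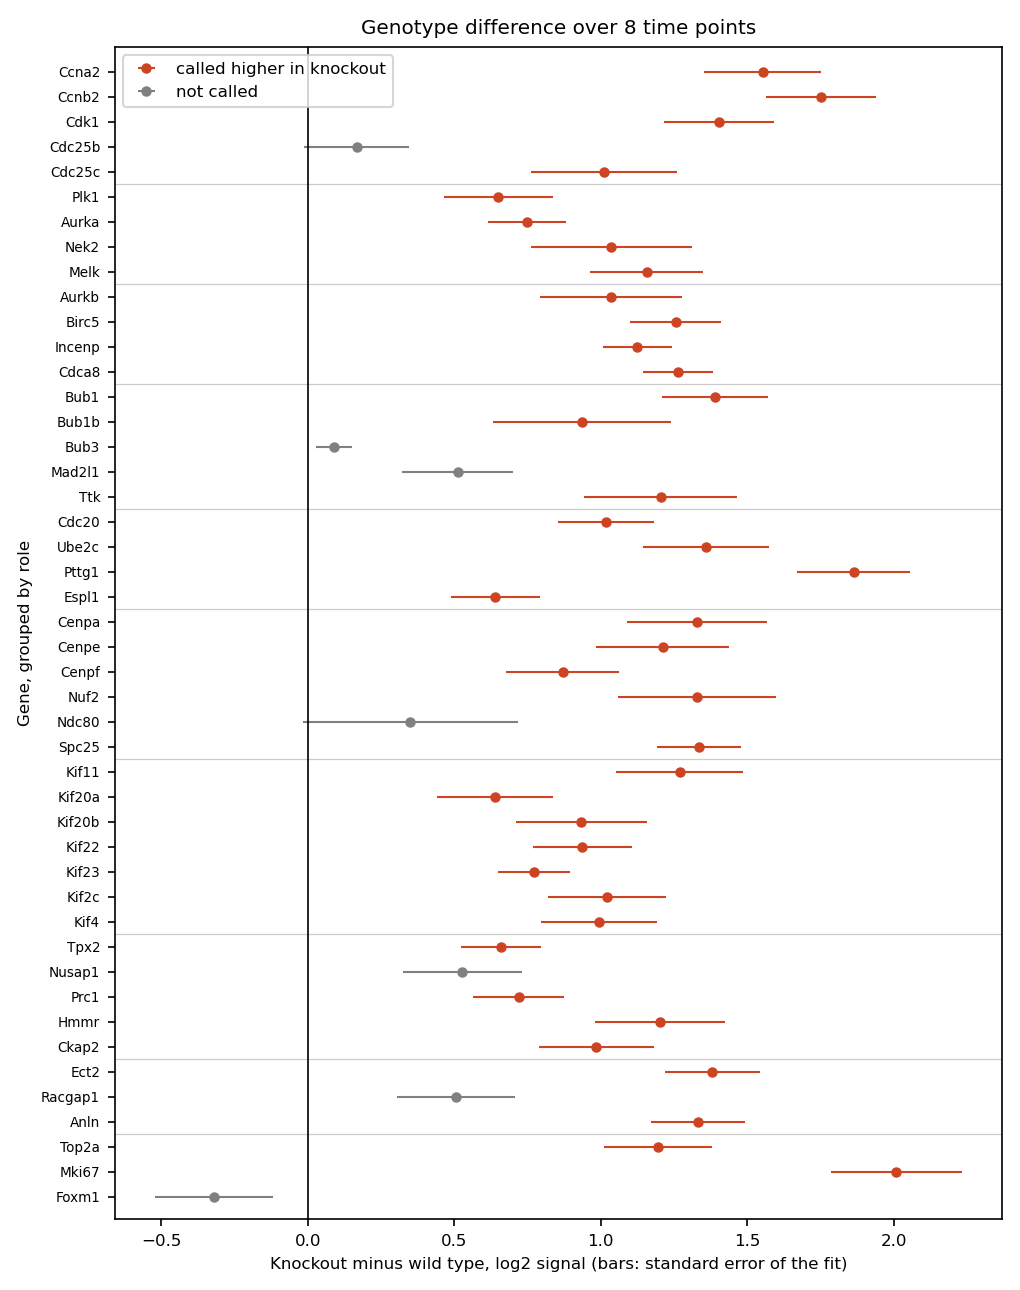
Knockout minus wild type in log2 signal for each of the 46 genes, grouped by role, as fitted over 8 time-matched pairs of arrays; bars are standard errors of the fit, red points were called higher (39 genes) and grey points were not called (7 genes). Differences run from -0.32 for Foxm1 to 2.01 for Mki67.

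Foxm1, the transcription factor that activates many G2/M genes, was the only one of the 46 with a negative difference. In the wild type it measured 6.11, 6.30, 7.12, 6.89, 7.12, 6.78, 7.14 and 6.58 from 0 to 480 min, and in the knockout 6.64, 6.79, 6.42, 6.39, 5.91, 6.59, 6.18 and 6.55. The difference was -0.32 (SE 0.20, adjusted p = 0.263), with the knockout higher at 0 and 15 min only. Its probe sets disagreed: a dimmer one was called higher in the knockout by 0.78 (adjusted p = 0.046 over all probe sets) and another one differed by 0.11 (adjusted p = 0.816), so no direction is given for Foxm1. With the deposited scaling its brightest probe set differed by 0.0069.

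Probe sets of other genes disagreed as well. Of 89 tested probe sets of the 46 genes, 58 were called higher, 1 lower and 30 neither, where 14.7% of all tested probe sets were called higher and 13.2% lower. The probe set called lower belongs to Kif2c (-0.68, adjusted p = 0.0343), against 1.02 on the brighter one used here, and 2 further probe sets of Kif2c differed by 0.14 and 0.09. Probe sets not called but with a negative sign were found for Spc25 (-0.17), Cenpf (-0.08), Cenpa (-0.01) and, at 3 of 5 probe sets, for Bub3 (-0.29, -0.03 and -0.03). Further probe sets of Bub1b (0.44), Incenp (0.54), Kif11 (0.60 and 0.06), Nek2 (0.56 and 0.02), Hmmr (0.46, 0.20 and 0.13) and Tpx2 (0.24 and 0.13) had the sign of the one used and were not called. The brightest probe set of 6 genes has the suffix x and that of 17 the suffix s or a, names the manufacturer gives to probe sets that can bind related or several transcripts. The 6 are Aurkb, Cdc25c, Cdc20, Incenp, Kif22 and Kif2c. On other probe sets that were called higher, Incenp differed by 0.50 and Cdc20 by 0.62 and 0.88, against 1.13 and 1.02 on those used. Aurkb differed by 1.04 there, Cdc25c by 0.99 and Kif22 by 0.85 and 0.87.

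From 120 to 240 min after PDGF-BB, RNA of many mitotic genes was lower than at 0 to 30 min. In this comparison 20 of 46 genes were called lower and 0 higher (limma), where 17.8% of all genes were lower and 11.5% higher. The median change was -0.60, against -0.06 for all genes. Other lists, described below, fell as well. Called lower were 43.5% of the 46, 58.8% of condensin and cohesin genes (median -0.465) and 46.7% of APC/C genes (median -0.244). The share was 24.4% for further G2/M genes, 31.4% for G1/S genes and 30.8% for brakes on mitotic entry. For DREAM, MuvB and E2F regulators it was 10.5%. Both genotype means were lower at 120 to 240 min for 38 of the 46, against 44.4% of all genes. For 17 of the 46 every late array lay below every early array within each genotype, against 16.8% of all genes. Without the 60 and 480 min arrays 32 were called lower, where 28.3% of 13913 genes were. The count depended on the arrays and the scaling: it was 11 without 15 min, 9 without 180 min and 7 without 240 min, and 1 with the deposited scaling, under which the median was -0.39 for these genes and 0.15 for all genes. The 3′/5′ signal ratio of the array's control transcripts, which reflects RNA integrity, had lower ranges at the later times. For beta-actin it ran from 1.95 to 3.88 at 0 to 30 min and from 1.53 to 2.44 at 120 to 240 min, and for Gapdh from 3.19 to 5.65 and from 2.44 to 4.64. By genotype, over all times, the beta-actin ratio ran from 1.37 to 3.88 in the wild type and from 1.54 to 3.71 in the knockout. The Gapdh ratio ran from 1.30 to 4.49 and from 2.44 to 5.65. The array labelled wild type 60 min was lowest for both (1.37 and 1.30). The part of these ratios in the time and genotype results was not tested.

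Kif22 showed the most negative change among the 46. Its wild-type mean fell from 8.31 to 6.82 and its knockout mean from 9.12 to 8.14 (change -1.23, SE 0.20, adjusted p = 0.00163). Bub1b (-1.14, SE 0.35), Cdc25b (-1.11, SE 0.21), Cenpe (-1.02, SE 0.26) and Ect2 (-1.01, SE 0.19) followed. Cdk1 fell from 7.90 to 6.87 in the wild type and from 9.25 to 8.50 in the knockout (change -0.89, SE 0.22, adjusted p = 0.012), and Mki67 from 7.33 to 6.30 and from 9.18 to 8.59 (change -0.81, SE 0.26, adjusted p = 0.0373). Also called lower were Ckap2, Hmmr, Ttk, Kif20a, Spc25, Bub1, Cdc20, Cenpf, Incenp, Melk, Top2a, Cdca8 and Aurka, by -0.998 to -0.506. Of these 20 genes, 19 were also called higher in the knockout, the exception being Cdc25b. Probe sets disagreed in this comparison too. Kif22 changed by -1.09 (adjusted p = 0.015, limma over all probe sets) and -0.30 (adjusted p = 0.378) on its other tested ones. Among further probe sets not called were those of Bub1 (0.26), Bub1b (0.04), Hmmr (0.30), Spc25 (-0.01) and Incenp (-0.09). Others were called lower: Bub1b (-1.31), Hmmr (-0.75), Cdc20 (-0.58 and -0.93) and Top2a (-0.96). For 39 of the 46 genes the knockout mean at 120 to 240 min still lay above the wild-type mean at 0 to 30 min, a count whose share over all genes is not given here.

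**Figure D3:**
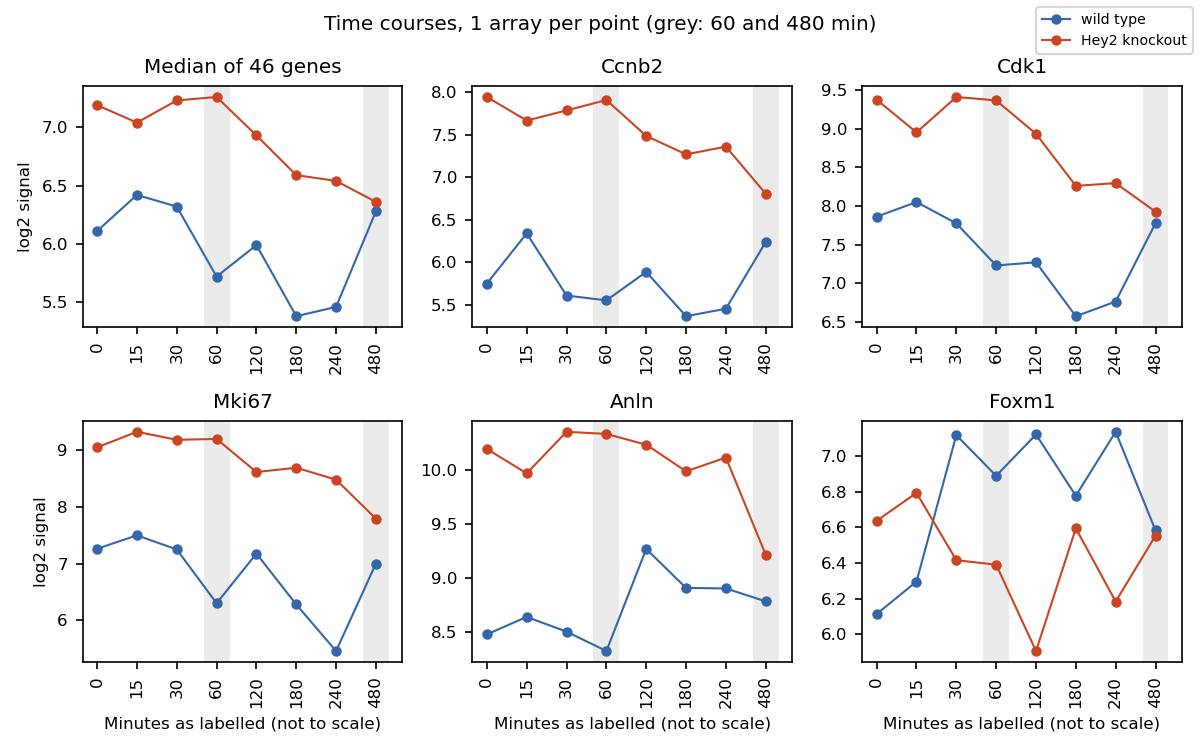
Log2 signal against time as labelled (spacing not to scale) in wild-type (blue) and knockout (red) cells, 1 array per point, for the median of the 46 genes and for Ccnb2, Cdk1, Mki67, Anln and Foxm1; grey bands mark the 60 and 480 min arrays. The median starts at 6.11 in the wild type and 7.19 in the knockout and is 5.46 and 6.54 at 240 min.

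A smaller group did not share this change. In the wild type, Anln was 8.47, 8.64 and 8.5 at 0, 15 and 30 min, then 9.27, 8.91 and 8.90 at 120, 180 and 240 min, whereas its knockout values were 10.20, 9.97 and 10.36 and then 10.24, 9.99 and 10.12. The wild-type means of Foxm1, Tpx2, Ccna2, Prc1, Kif4 and Kif23 were also higher at the later times, by 0.50, 0.30, 0.27, 0.22, 0.19 and 0.09, and their knockout means changed by -0.39, -0.30, -0.41, -0.10, 0.03 and -0.30. None of these 7 genes was called in the time comparison (adjusted p from 0.416 for Anln to 0.999 for Tpx2). The wild-type rise of Ccna2 rests on its 30 min array, which measured 4.93 against 6.02 at 0 and 6.23 at 15 min. That array had the lowest trimmed mean (80.99). The rise of Kif4 rests likewise on its 15 min array, at 3.79 against 5.56 at 0 and 4.51 at 30 min. For Cdc25c the wild-type mean was lower by 0.90 and the knockout mean higher by 0.01 at the later times.

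**Figure D4:**
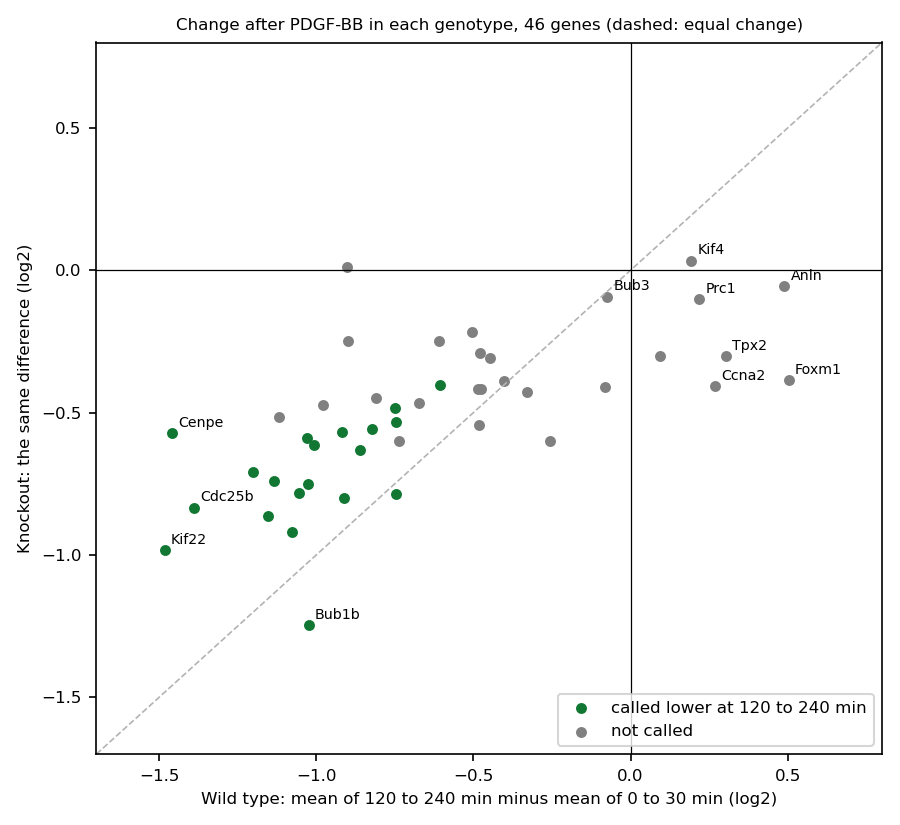
Mean log2 signal at 120 to 240 min minus that at 0 to 30 min in the wild type (horizontal) and in the knockout (vertical) for each of the 46 genes; green points were called lower over both genotypes (20 genes), and the dashed line marks equal change. The 38 points below and to the left of 0 were lower at the later times in both genotypes, and Anln, Foxm1, Tpx2, Ccna2, Prc1 and Kif4 are among the points to the right of 0.

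Whether the genotype difference itself changed from 120 min on was tested as an interaction. It was called for 0 of 46 genes and for 2 genes in all (0.014%, limma), with 3 of the 46 at an unadjusted p under 0.05, a share no larger than the 8.17% of all genes. Without the 60 and 480 min arrays 0 of 46 were called, where 4.27% of genes were, and 7 had an unadjusted p under 0.05, as had 18.1% of all genes. The smallest adjusted p among the 46 was then that of Anln (0.0653). At 480 min as labelled, against 0 to 30 min, 0 of 46 genes were called by limma (0.399% of all genes), 44 of 46 had a negative change (54.3% of all genes) and 16 an unadjusted p under 0.05 (12.6% of all genes). The knockout reached its lowest value at 480 min for 35 of 46 genes, and the wild type for 1. The shares of all genes for these counts are not given here. The 480 min arrays are among those that went against their labels above.

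Within a genotype most of the 46 genes varied together from array to array. The correlation of each gene with the median of the others over the 8 arrays had a median of 0.79 in the wild type and 0.86 in the knockout, a description of arrays that share a scale and a source. It was above 0.5 for 36 genes in the wild type and 43 in the knockout. Foxm1 (-0.43 and -0.05) and Bub3 (-0.15 and 0.01) stood outside in both genotypes. In the wild type alone, Anln (-0.27 and 0.76), Tpx2 (-0.21 and 0.75), Kif4 (-0.21 and 0.52) and Ccna2 (-0.18 and 0.94) did so. Prc1 (-0.13 and 0.81) and Kif23 (-0.08 and 0.76) were also below 0 there.

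Other genes of the cell cycle, from lists that do not overlap with the 46, were higher in smaller shares, and the lists were not tested against each other. Of all genes tested, 16.6% were called higher and 14.1% lower. Of 45 further G2/M and mitosis genes, 21 were higher and 3 lower (median 0.41). The higher ones included Pbk, a mitotic kinase (1.35, SE 0.12), and Cep55, an abscission protein (1.47, SE 0.15). The lower ones were the nuclear import receptor Kpna2 (-0.60, SE 0.08), the spindle protein Troap (-0.72, SE 0.24) and the microtubule polymerase Ckap5 (-0.30, SE 0.10). Of 35 genes for G1/S or DNA synthesis, 16 were higher and 1 lower (median 0.33): the ribonucleotide reductase subunit Rrm2 differed by 1.97 (SE 0.13), and Mcm6, a subunit of the replicative helicase, by -0.87 (SE 0.07).

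Lists of genes that act on the mitotic set or in the same complexes had medians near that of all genes. Called higher were 35.3% of condensin and cohesin genes and 13.3% of APC/C genes. For DREAM, MuvB and E2F regulators the share was 21.1%, and for brakes on mitotic entry 30.8%. Over all genes 16.6% were called higher and 14.1% lower. Condensin and cohesin genes were higher in 6 and lower in 3 of 17 cases (median 0.08), with the condensin subunits Ncapg2 (1.38, SE 0.13) and Smc2 (0.80, SE 0.10) higher and the cohesin genes Rad21 (-0.65), Wapl (-0.34) and Stag1 (-0.33) lower. Of 15 genes of APC/C subunits and cofactors, 2 were higher and 3 lower (median -0.07), among them the subunits Anapc5 (-0.36, SE 0.07) and Cdc16 (-0.32, SE 0.07), against Anapc13 (0.44) and the APC/C inhibitor Fbxo5 (0.45). The 19 DREAM, MuvB and E2F regulators held 4 higher and 1 lower (median 0.08), with E2f1 (0.91, SE 0.12) and E2f8 (1.65, SE 0.22) higher and E2f3 (-0.48) lower. Of 13 genes that brake mitotic entry, 4 were higher and 1 lower (median 0.13), the stress-induced Gadd45a (1.03, SE 0.11) and cyclin G1 (Ccng1, 0.36, SE 0.06) being higher and Gadd45b (-0.54) lower.

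**Figure D5:**
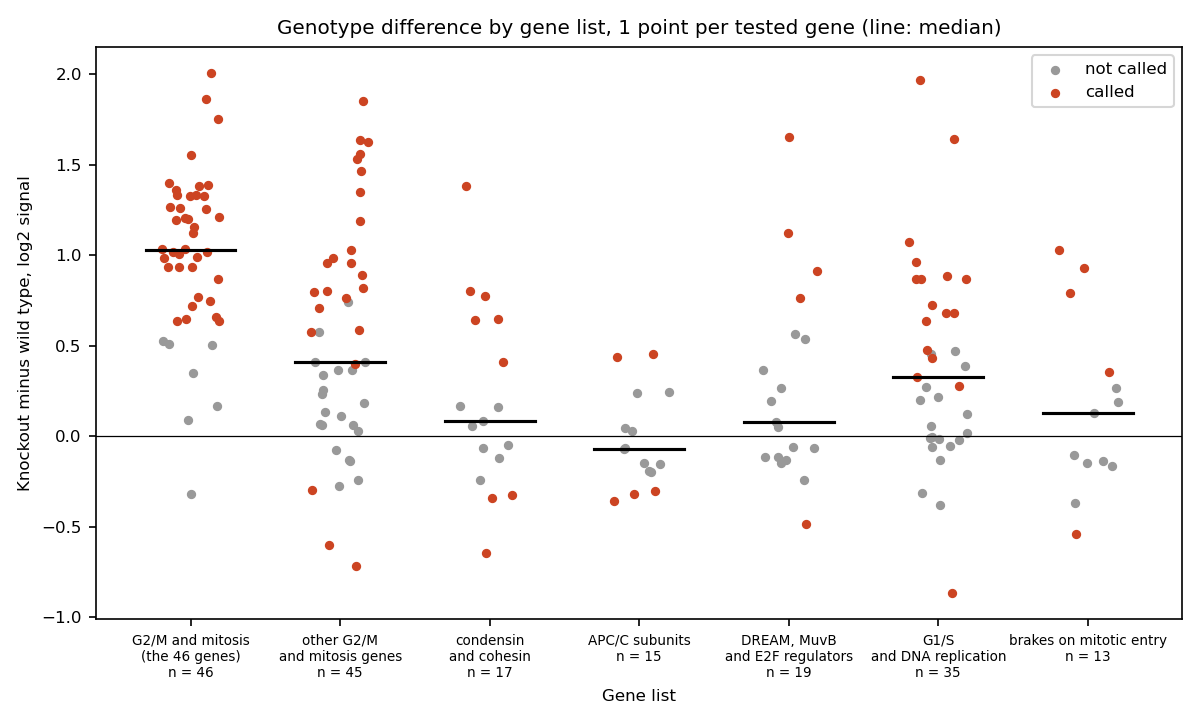
Knockout minus wild type in log2 signal for each tested gene of the 46 and of 6 other cell cycle lists (1 point per gene, spread sideways for legibility); red points were called by limma, grey points were not, and the black lines are list medians. The median is 1.03 for the 46 genes, 0.41 for further G2/M genes, 0.33 for G1/S genes and between -0.07 and 0.13 for the other 4 lists.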

How the data were processed

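The authors deposited signal intensity values per probe set as linear values from MAS5, per the submitters' processing notes, with version and target scaling not stated there. Genotype and time came from the sample titles. The 45101 probe sets of 16 arrays were quantile normalized and taken to log2(signal + 4.8562), with the 20th percentile as offset, which understates changes of dim genes. Probe sets with 1 symbol (34945) and a signal above 16, the 40th percentile, on at least 3 arrays were kept, and the brightest stood for each of 14299 genes. The model in limma 3.58.1 (R 4.3.3) held genotype and the 8 times as a factor (7 residual degrees of freedom), used an intensity trend, and p-values were adjusted by Benjamini-Hochberg over all genes, at 0.05. Time-matched arrays, treated in parallel per the series' design text, formed the blocks. The interaction, genotype by times from 120 min on, had 6 residual degrees of freedom. The fits were also run on simulated data with independent noise on each array, which cannot speak to effects that arrays of a genotype or time share. Named in full were the genes with the largest and smallest moderated statistic in each of 10 roles, with Cdk1, Mki67, Top2a and Foxm1; a group of 8 arrays is given by its lowest, median and highest value. The genes and lists were chosen with earlier results of these data known. Alternatives covered scaling, offset, filter, probe set choice, variance model, the block, a 2-fold threshold, the shape of the interaction and each time left out. Precision is limited by how few arrays there are.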

Additional observations from a re-analysis of the deposited data

Results flagged for a closer look

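In 94 groups of 8 arrays, the 46 genes and their median in each genotype, 6 had an array that lay far from the others of its group, where chance gives about 1 in 20 groups. In the wild type these were Ccna2 at 30 min, with a log2 signal of 4.93 where the other 7 arrays ran from 5.69 to 6.33, and Nek2 at 180 min, with 3.29 where they ran from 5.13 to 6.09. The other 4 were knockout arrays labelled 480 min: Cenpa at 6.78 (others 7.39 to 7.90), Ndc80 at 2.79 (4.43 to 5.68), Prc1 at 6.60 (7.45 to 7.92) and Anln at 9.21 (9.97 to 10.4).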

How the results depend on the processing

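The count of genes higher in the knockout (39) stayed between 36 and 42 and that of lower genes at 0 under every alternative scaling, offset, filter, probe set choice, variance model, block and left-out time, and 26 were called and at least 2-fold. The median difference stayed between 0.86 and 1.32. With no replicate block (genotype without time in the model), 37 were higher, and Bub1b (adjusted p = 0.0954) and Kif20a (adjusted p = 0.106) lost their call. With the deposited scaling the median over all genes was 0.28 in place of -0.02, and the share of higher among all called genes was 87.8% in place of 53.9%; 42 of the 46 were then higher, with a median of 1.32. The count of genes changed at 120 to 240 min (20) was 1 with the deposited scaling, 32 without the 60 and 480 min arrays, 5 when a 2-fold change was required as well, and 7 to 25 with each time left out. The counts of 0 at 480 min and in the interaction stayed 0 under each alternative run. Foxm1 turned positive with the deposited scaling (0.00686) and as the mean of its probe sets (0.193), and Bub3 negative as the mean of its probe sets (-0.0304); as means, Cenpf (0.393) and Kif2c (0.143) were not called. The cause of these shifts was not tested. Dim signal limits Cdc25c, Nuf2, Ttk, Melk and Bub1b, whose differences depend on the offset.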
